A study of Mus musculus with 9 samples.

Results

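The genes of 2 rotary proton machines, the mitochondrial ATP synthase and the vacuolar proton pump (V-ATPase), were followed across 3 Dot1l genotypes. Members were the protein-coding mouse genes whose symbol starts with Atp5, Atp6v or Atp6ap, together with Atpif1, Usmg5, Atpaf1 and Atpaf2. The rule found 47 genes among the 47729 gene identifiers of the count files, 21 for the ATP synthase and 26 for the vacuolar pump. Atp6v1fnb was among the 26 by its symbol alone, since it is a neighbour of Atp6v1f and not a known pump subunit. The data were RNA sequencing counts of dissected midbrain from C57/Bl6 mice at 180 days, in 9 libraries with 3 per genotype. The controls were Pitx3-Cre/+; Dot1l +/+ (Dot1l(+/+)), and the others carried 1 floxed Dot1l allele (Dot1l(fl/+)) or 2 (Dot1l(fl/fl)). Pitx3-Cre/+ and the Rosa-lox-stop-lox-Yfp reporter were present in every group, so the controls also expressed Cre. Each library was a pool of 3 mice and not a single animal. The design text of the series speaks of sorted cells at E15.75, whereas the label of each library gives P180 and dissected tissue, which was followed here.

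ATP synthase sits in the inner mitochondrial membrane, where protons returning to the matrix turn a ring of c subunits and a central stalk, and this drives ATP formation in the F1 head. A peripheral stalk holds the head still, and several very small proteins join the complexes into rows that shape the cristae. The vacuolar pump is built on the same plan but runs the other way, spending ATP in its V1 head to turn the V0 ring and move protons into lysosomes, endosomes and synaptic vesicles, where the proton gradient loads dopamine and other transmitters. Dot1l is the enzyme that methylates lysine 79 of histone H3.

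The c ring of the synthase is coded by 3 genes, Atp5g1, Atp5g2 and Atp5g3, and their sequences are shown because counts of Atp5g1 and Atp5g2 depend on how reads on near copies were assigned. The last 120 coding bases, stop codon included, come from the GENCODE M21 transcripts of Atp5g1 (chr11:96068852-96075670), Atp5g2 (chr15:102662864-102672352) and Atp5g3 (chr2:73908447-73911326), all on the minus strand of GRCm38. Capitals mark the 31 positions where the 3 genes are not all alike, 26 of them at the last base of a codon.
Atp5g1: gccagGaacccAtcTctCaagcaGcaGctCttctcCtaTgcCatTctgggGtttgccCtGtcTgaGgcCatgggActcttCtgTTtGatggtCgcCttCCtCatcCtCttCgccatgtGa
Atp5g2: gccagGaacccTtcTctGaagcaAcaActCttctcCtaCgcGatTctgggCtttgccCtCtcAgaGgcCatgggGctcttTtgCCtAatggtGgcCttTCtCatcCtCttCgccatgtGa
Atp5g3: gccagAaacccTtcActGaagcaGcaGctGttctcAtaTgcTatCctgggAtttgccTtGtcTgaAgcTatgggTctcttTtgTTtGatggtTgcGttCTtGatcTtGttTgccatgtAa
In this stretch Atp5g1 and Atp5g2 were identical at 86.7% of positions, Atp5g1 and Atp5g3 at 81.7%, and Atp5g2 and Atp5g3 at 76.7%. Over their whole principal transcripts, Atp5g3 shared 0% of its 50-base words with any other gene. Atp5g2 shared 100% of its 50-base words with the processed copies Gm10175 and Gm10231, and Atp5g1 shared 52.2% with Gm10039.

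RefSeq start sites (GRCm38.p6) were matched for 19 synthase genes and 19 pump genes. Atp5a1, Atp5mpl, Atp6v0a2, Atp6v0d2, Atp6v1b2, Atp6v1c1, Atp6v1g1, Atp6v1h and Atp6ap1l were not matched in the table used. Windows of 300 bases, 250 before and 50 after each start, were searched on both strands for 6 motifs. The E-box CACGTG was in 31.6% of synthase genes, 21.1% of pump genes and 8.91% of all 17491 genes. The ETS core CCGGAAG was in 31.6%, 21.1% and 12.9%, the YY1 site AAGATGGCG in 15.8%, 5.26% and 2.14%, and the palindromic NRF1 site in 10.5%, 5.26% and 1.47%. Out of 19 genes per machine, the E-box and the ETS core were each in 6 synthase and 4 pump genes. The YY1 site was in only 3 and 1, and the NRF1 site in 2 and 1. The GC box GGGCGG was in 47.4%, 63.2% and 49.2%, and the CRE TGACGTCA in 0%, 0% and 2.54%. The 250 bases before the start are shown for the c ring genes with the lowest p-values in opposite directions, Atp5g1 (chr11:96075632-96075881) and Atp5g3 (chr2:73911327-73911576), and for the central stalk gene Atp5e (chr2:174464102-174464351), all minus strand and 5′ to 3′ along the gene. Capitals mark matches to the motifs on either strand.
Atp5g1: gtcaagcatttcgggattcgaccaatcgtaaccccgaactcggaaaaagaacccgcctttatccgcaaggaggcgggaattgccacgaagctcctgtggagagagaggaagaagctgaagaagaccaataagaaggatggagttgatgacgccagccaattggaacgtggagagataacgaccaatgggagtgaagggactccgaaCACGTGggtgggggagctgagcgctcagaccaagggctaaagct
Atp5g3: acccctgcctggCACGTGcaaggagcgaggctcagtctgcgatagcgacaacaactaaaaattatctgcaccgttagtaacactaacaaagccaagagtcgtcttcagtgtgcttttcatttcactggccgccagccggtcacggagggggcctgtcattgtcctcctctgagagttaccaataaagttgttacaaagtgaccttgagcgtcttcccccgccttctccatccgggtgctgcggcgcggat
Atp5e: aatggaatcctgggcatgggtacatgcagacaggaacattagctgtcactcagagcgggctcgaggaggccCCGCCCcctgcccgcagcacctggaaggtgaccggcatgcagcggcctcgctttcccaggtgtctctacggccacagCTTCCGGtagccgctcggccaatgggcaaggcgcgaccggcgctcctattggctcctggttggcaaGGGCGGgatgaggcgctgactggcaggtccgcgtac
Atp5g1 and Atp5g3 both held 1 E-box, beginning 44 bases before the start in Atp5g1 and 238 bases before it in Atp5g3. Atp5e held 1 ETS core in reverse, 102 bases before the start, between 2 GC boxes. A match describes the letters only.

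Total counts ran from 16422135 to 28403218 per library, and synthase genes took 0.29 to 0.345% and pump genes 0.445 to 0.479% of them. Values are given as CPM, a gene's count over the library total, where the total is scaled by TMM, a factor that evens out library composition. Dot1l itself measured 83.5 ± 2.85 CPM (SD, n = 3) with no floxed allele, 73.5 ± 12 with 1 and 79.6 ± 4.95 with 2, and edgeR gave adjusted p-values of 0.62 and 0.999 against controls. Whether its counts fall inside the floxed part was not examined, so this does not check the labels. The tissue label names dopamine neurons, and their enzyme Th was present (control mean 75.2 CPM), but so was Mbp of myelinating cells (4063 CPM), in which Pitx3-Cre is not active. The 11 dopamine neuron markers summed to 635 to 702 CPM without a floxed allele, 498 to 645 with 1 and 482 to 513 with 2. The 5 choroid plexus markers summed to 58.2 to 145, 105 to 573 and 31.1 to 38.7 CPM, in the same order. In bulk tissue, fewer cells of a type and less RNA per cell cannot be told apart.

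All 21 synthase genes and 20 of the 26 pump genes passed the filter on low counts. The 6 others, Atp6v0a4, Atp6v0d2, Atp6v1b1, Atp6v1e2, Atp6v1g3 and Atp6v1fnb, never reached more than 9 counts in a library, and Atp6v1g3 was at 0 in every library. Levels between genes were compared as control CPM per kb of transcript. Among synthase genes the catalytic head led, with Atp5b (beta subunit, where ATP is made) at 625 ± 18.2 CPM per kb and Atp5a1 (alpha subunit) at 347 ± 15.1. Atp5g3 followed at 199 ± 6.95. The central stalk genes Atp5c1 (gamma) and Atp5d (delta) were at 123 ± 6.54 and 116 ± 7.73, levels that overlap within their spread, and Atp5e (epsilon) was at 52.3 ± 1.01. The 4 peripheral stalk genes, Atp5f1, Atp5o, Atp5h and Atp5j, lay between 58.8 and 79.9 CPM per kb. Atpif1, whose protein blocks the synthase when it would run backward and spend ATP, was at 103 ± 1.36. The assembly factors Atpaf1 and Atpaf2, which guard the free beta and alpha subunits, were at 14.8 ± 0.352 and 11.3 ± 0.5.

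Where several genes can fill 1 place, a single gene took most of the counted level. Atp5g3 exceeded Atp5g1 (50.1 ± 1.74 CPM per kb) and Atp5g2 (2.47 ± 0.497) in the c ring. Of the 50-base words of Atp5g1 56.2% and of Atp5g2 100% occur in other genes, against 0% for Atp5g3. The levels of Atp5g1 and Atp5g2 are thus only those of the reads assigned to them. In the pump, the brain form of the B subunit, Atp6v1b2, was at 256 ± 4.45 while the kidney form Atp6v1b1 was at 0.0125 ± 0.0217. The same held for Atp6v1e1 (208 ± 7.78) over Atp6v1e2, for Atp6v1c1 (131 ± 6.73) over Atp6v1c2 (1.19 ± 0.272), for Atp6v0a1 (124 ± 3.72) over Atp6v0a2 (17.7 ± 0.818), and for Atp6v0d1 (96.3 ± 1.32) over Atp6v0d2. Tcirg1, the gene of a further a subunit that the symbol rule leaves out, was at 20.97 ± 0.875 CPM, not taken per kb. In the same unit Atp6v0a2 was at 94.3 ± 4.37 CPM, and their transcripts have 2729 and 5345 bases. Among G subunit genes Atp6v1g2, the form typical of neurons, was at 190 ± 5.76 and Atp6v1g1 at 31.3 ± 2.71. Among e subunit genes Atp6v0e2 was at 138 ± 5.65 and Atp6v0e at 26.8 ± 0.271. Transcript choice limits these values for a few genes, and at the longest principal transcript Atp5g1 would be at 7.35 CPM per kb and Usmg5 at 4.14 rather than 31.2.

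**Figure D1:**
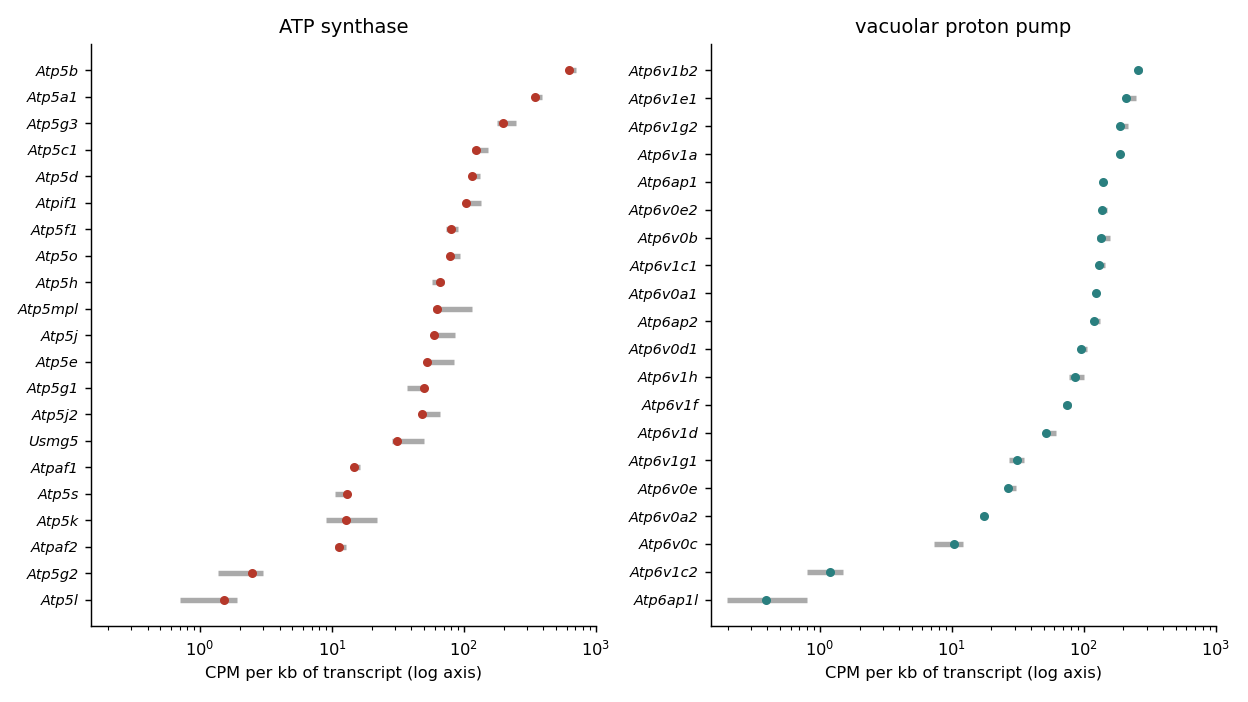
Level of each tested synthase gene (left) and pump gene (right) in CPM per kb of transcript on a log axis. Dots give the control mean of 3 libraries and grey bars run from the lowest to the highest of all 9 libraries. Atp5b stands highest at 625 CPM per kb, and within most sets of related genes 1 gene lies far above the rest.

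The first comparison asked whether 1 floxed Dot1l allele was accompanied by other levels of these genes. No member passed an adjusted p-value of 0.05 in Dot1l(fl/+) against Dot1l(+/+), nor did any of the 17671 genes tested (edgeR quasi-likelihood test with Benjamini-Hochberg adjustment). At an unadjusted p-value below 0.05 stood 10 of 21 synthase genes, 8 of them higher and 2 lower, and 2 of 20 pump genes, both higher. Over all genes tested, 8.39% were below this value, 4.3% higher and 4.09% lower. Values above 0 were found in 16 of 21 synthase genes, 17 of 20 pump genes and 8645 of all 17671 genes. The median log2 fold change was 0.10 for synthase genes, 0.05 for pump genes and -0.00 for all genes. Without Dot1l(fl/+) replicate 1 the medians were 0.16 and 0.08, and without Dot1l(fl/+) replicate 2 the pump median was 0.03. In 7 synthase genes all 3 Dot1l(fl/+) libraries lay above all 3 controls and in 2 all lay below, where 6.84% and 6.47% of all genes did so. Of the 20 pump genes, Atp6v1b2 and the accessory gene Atp6ap1 (log2 fold change 0.06, SE 0.046) had all 3 above and 0 had all 3 below.

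The 5 synthase genes with the lowest p-values were Usmg5, Atp5mpl, Atp5e, Atp5j2 and Atpif1. Usmg5 codes for a small membrane protein of the synthase known as DAPIT. The control libraries held 10.4, 10.7 and 12.8 CPM, and the Dot1l(fl/+) libraries 13.7, 17.9 and 16.6. The groups did not overlap, with a log2 fold change of 0.51 (SE 0.13, unadjusted p = 0.00146, edgeR adjusted p = 0.541). Atp5mpl, the 6.8 kDa proteolipid that associates with the membrane part, gave 21.3, 24.4 and 23.2 CPM across controls against 30.3, 38.2 and 37.9 with 1 floxed allele. All 3 libraries again lay above the controls, and the log2 fold change of 0.63 (SE 0.16) was the highest of any member tested, with an unadjusted p of 0.00188 and an edgeR adjusted p of 0.541. Atp5mpl was also the only named member past the threshold in the 6-library DESeq2 fit (adjusted p = 6.5e-05), whereas DESeq2 on all 9 libraries gave an adjusted p of 0.707. Without a filter on low counts, edgeR called 251 of 28316 genes in this comparison, Atp5mpl, Atp5e, Usmg5, Atp5j2, Atpif1 and Atp5g3 among them. Their fold changes there were near those of the fit with the filter, while their SE was lower, as in Atp5mpl (0.63, SE 0.09). The calls thus went with a smaller estimate of the spread and not with a larger difference.

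Atp5e, the epsilon subunit at the foot of the central stalk, gave 21.9, 21.7 and 22.5 CPM across controls against 23.8, 32.5 and 35.3 with 1 floxed allele. Replicate 1 thus stood just above the controls and the other 2 well above, with a log2 fold change of 0.47 (SE 0.13, unadjusted p = 0.00377, edgeR adjusted p = 0.541). Atp5j2, the f subunit of the membrane part, was at 45.1, 43.5 and 48.6 CPM against 47.5, 62.8 and 60.6, and here replicate 1 fell among the controls. Its log2 fold change was 0.32 (SE 0.094, unadjusted p = 0.00483, edgeR adjusted p = 0.541). The inhibitor gene Atpif1 gave 55.9, 54.6 and 55.7 CPM across controls against 60.2, 69.2 and 72.8, again with no overlap and a log2 fold change of 0.28 (SE 0.089, unadjusted p = 0.00719, edgeR adjusted p = 0.541). The main head genes differed less, Atp5b by 0.10 (SE 0.056) and Atp5a1 by 0.08 (SE 0.056) on the log2 scale, each within overlapping ranges. Of the 5 genes of small membrane subunits, Usmg5, Atp5mpl and Atp5j2 were thus below an unadjusted p of 0.05 and the other 2 were not. With the replicate number as a block, Atp5k was too (log2 fold change 0.48, SE 0.16, unadjusted p = 0.00993, edgeR adjusted p = 0.453). In the fit without the block, Atp5k (e subunit) was at 4.76 ± 1.34 and 6.5 ± 0.484 CPM with a log2 fold change of 0.46 (SE 0.22), and Atp5l (g subunit) was at or below 1.03 CPM in every library. Of the 50-base words of Atp5l, 65.3% occur in other genes, and its log2 fold change was -0.37 (SE 0.38) alone and 0.00 (SE 0.25) with its 6 copies added.

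**Figure D2:**
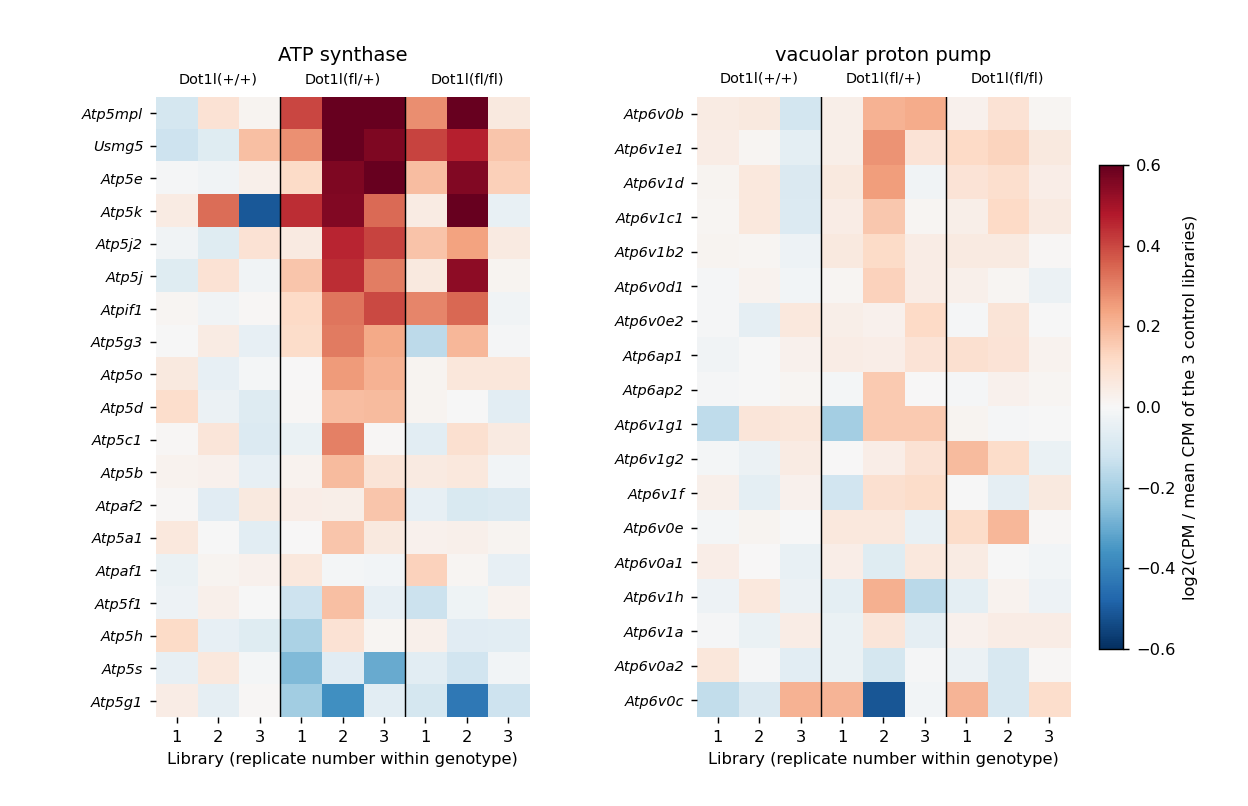
log2 of the CPM in each library over the mean CPM of the 3 control libraries, for synthase genes (left) and pump genes (right) at 3 CPM or more in every library, sorted by their log2 fold change in Dot1l(fl/+). The colour scale ends at -0.6 and 0.6. Dot1l(fl/+) replicates 2 and 3 and Dot1l(fl/fl) replicate 2 show the deepest red among the synthase genes in the upper rows, and most pump genes are pale, apart from Atp6v0c, at 5.83 CPM in Dot1l(fl/+) replicate 2.

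The c ring genes lay on opposite sides of the controls. Atp5g3 gave 142, 147 and 137 CPM across controls against 153, 176 and 166, with no overlap (log2 fold change 0.22, SE 0.079, unadjusted p = 0.0152, edgeR adjusted p = 0.541). Atp5g1 gave 35.8, 33.4 and 34.8 CPM across controls against 30.0, 26.8 and 33.2, all 3 below the controls (log2 fold change -0.21, SE 0.096, unadjusted p = 0.0487, edgeR adjusted p = 0.594, and -0.13 without Dot1l(fl/+) replicate 2). The ratio of Atp5g3 to Atp5g1 was 3.96, 4.4 and 3.94 across controls, 5.11, 6.56 and 5.0 with 1 floxed allele, and 3.94, 6.33 and 4.43 with 2. In an exact two-sided permutation test of 3 against 3 libraries the ratio gave p = 0.1 for Dot1l(fl/+) against controls, the smallest this design allows, and 0.4 after adjustment over the 12 ratio comparisons made. Gm10039, the processed copy that shares 52.2% of the 50-base words of Atp5g1, gave 19.2, 20.4 and 20.5 CPM across controls, 23.1, 27.1 and 27.7 with 1 floxed allele and 22.3, 26.4 and 21.2 with 2. Its controls were thus the lowest group, the opposite of Atp5g1. When its counts were added to Atp5g1, the log2 fold change in Dot1l(fl/+) turned to 0.03 (SE 0.062, unadjusted p = 0.582, edgeR adjusted p = 0.912), so the lower level of Atp5g1 depends on how reads were split between gene and copy. Atp5g2 gave 1.04, 1.33 and 0.902 CPM across controls, 0.823, 0.601 and 1.22 with 1 floxed allele and 0.76, 0.791 and 0.971 with 2, so its groups overlapped (log2 fold changes -0.31, SE 0.3, and -0.39, SE 0.31). The first of these was -0.13 without Dot1l(+/+) replicate 2, -0.09 without Dot1l(fl/+) replicate 2 and -0.62 with replicate 3 of that group left out. With its copies added these were -0.14 (SE 0.28) and -0.25 (SE 0.29).

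**Figure D3:**
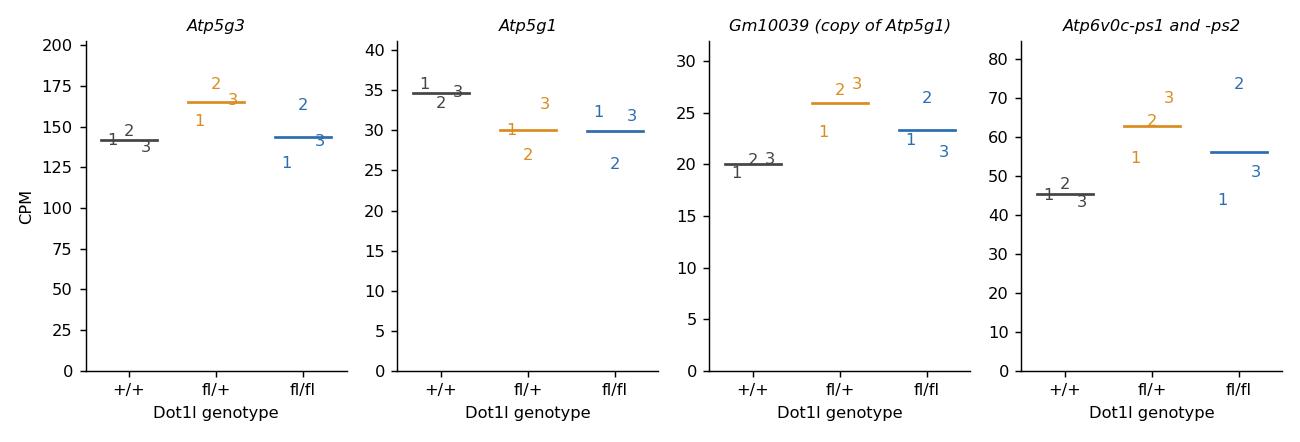
CPM in each library for the c ring genes Atp5g3 and Atp5g1, the processed copy Gm10039, and the summed copies of Atp6v0c, by Dot1l genotype. Numerals give the replicate and lines the mean of 3 libraries, with each axis starting at 0. In Dot1l(fl/+), Atp5g1 lies below and Gm10039 above all 3 controls.

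Other synthase genes at an unadjusted p-value below 0.05 were Atp5j (coupling factor 6 of the peripheral stalk, log2 fold change 0.31, SE 0.12), Atp5o (OSCP, which joins that stalk to the head, 0.16, SE 0.065) and Atp5s (coupling factor B, -0.21, SE 0.088). Atp5j begins head to head with Gabpa, the gene of an ETS factor, which differed from controls by -0.06 (SE 0.082) on the log2 scale. Atp5f1, Atp5h, Atpaf1 and Atpaf2 lay between -0.03 and 0.08 on this scale. Reads of Atp5h are shared with a copy, Gm10250, for 50.5% of its 50-base words. With the counts of this copy added, its log2 fold change turned from -0.03 (SE 0.08) to 0.17 (SE 0.072, unadjusted p = 0.031, edgeR adjusted p = 0.56). With the copy Gm5436 added (19.1% of words shared), Atp5o gave 0.14 (SE 0.066, unadjusted p = 0.0595, edgeR adjusted p = 0.611) and was no longer below 0.05. For Usmg5, counts added from its copy Gm14539 (39.9% of 50-base words shared) left a log2 fold change of 0.57 (SE 0.14, edgeR adjusted p = 0.543).

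The pump genes tested lay between -0.09 and 0.23 of the controls on the log2 scale. Atp6v0b, the c″ proteolipid of the V0 ring, gave 140, 141 and 126 CPM across controls against 139, 157 and 158, so the groups overlapped (log2 fold change 0.16, SE 0.062, unadjusted p = 0.023, edgeR adjusted p = 0.541). Atp6v1e1, the E subunit of the peripheral stalk, was at 282, 275 and 262 against 280, 329 and 289 CPM, with overlap as well (0.13, SE 0.062, unadjusted p = 0.049, edgeR adjusted p = 0.595). Atp6v1d of the central rotor gave 193, 199 and 180 CPM across controls against 199, 227 and 188, a log2 fold change of 0.10 (SE 0.066). The catalytic A subunit gene Atp6v1a was at 732 ± 21.7 and 729 ± 34.9 CPM in the 2 groups. Its partner Atp6v1b2 gave 732, 731 and 710 CPM across controls against 754, 784 and 746. This gene lay above all 3 controls in each Dot1l(fl/+) library, at a log2 fold change of only 0.07 (SE 0.048, unadjusted p = 0.159, edgeR adjusted p = 0.711). Atp6v0d1, which couples the rotor to the ring, was at 156, 159 and 155 CPM against 158, 173 and 162, a log2 fold change of 0.06 (SE 0.048, edgeR adjusted p = 0.744). Without Dot1l(fl/+) replicate 2, the log2 fold changes were 0.06 for Atp6v1e1, 0.02 for Atp6v1d and 0.03 for Atp6v0d1. That of Atp6v1d was also 0.06 without Dot1l(+/+) replicate 3 and 0.16 without Dot1l(fl/+) replicate 3.

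The ring gene Atp6v0c was counted at only 7.52, 7.86 and 9.62 CPM across controls, 9.6, 5.83 and 8.24 with 1 floxed allele and 9.6, 7.79 and 8.98 with 2, and the groups overlapped. Its copies Atp6v0c-ps1 and Atp6v0c-ps2 together held 44.9, 47.8 and 43.1 CPM across controls, 54.5, 63.9 and 69.9 with 1 floxed allele, and 43.6, 73.4 and 50.9 with 2. Of the 50-base words of Atp6v0c, 49.3% occur in a copy, so its level is only that of the reads assigned to it. Gene and copies summed gave log2 fold changes of 0.40 (SE 0.12, unadjusted p = 0.00575, edgeR adjusted p = 0.543) in Dot1l(fl/+) and 0.28 (SE 0.12, unadjusted p = 0.0418, edgeR adjusted p = 0.999) in Dot1l(fl/fl), where the gene alone gave -0.09 (SE 0.17) and 0.07 (SE 0.17). The direction for Atp6v0c in Dot1l(fl/+) thus turned with the way copies were counted, and for the gene alone it was also above 0 without Dot1l(+/+) replicate 3 (0.04) or Dot1l(fl/+) replicate 2 (0.09).

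**Figure D4:**
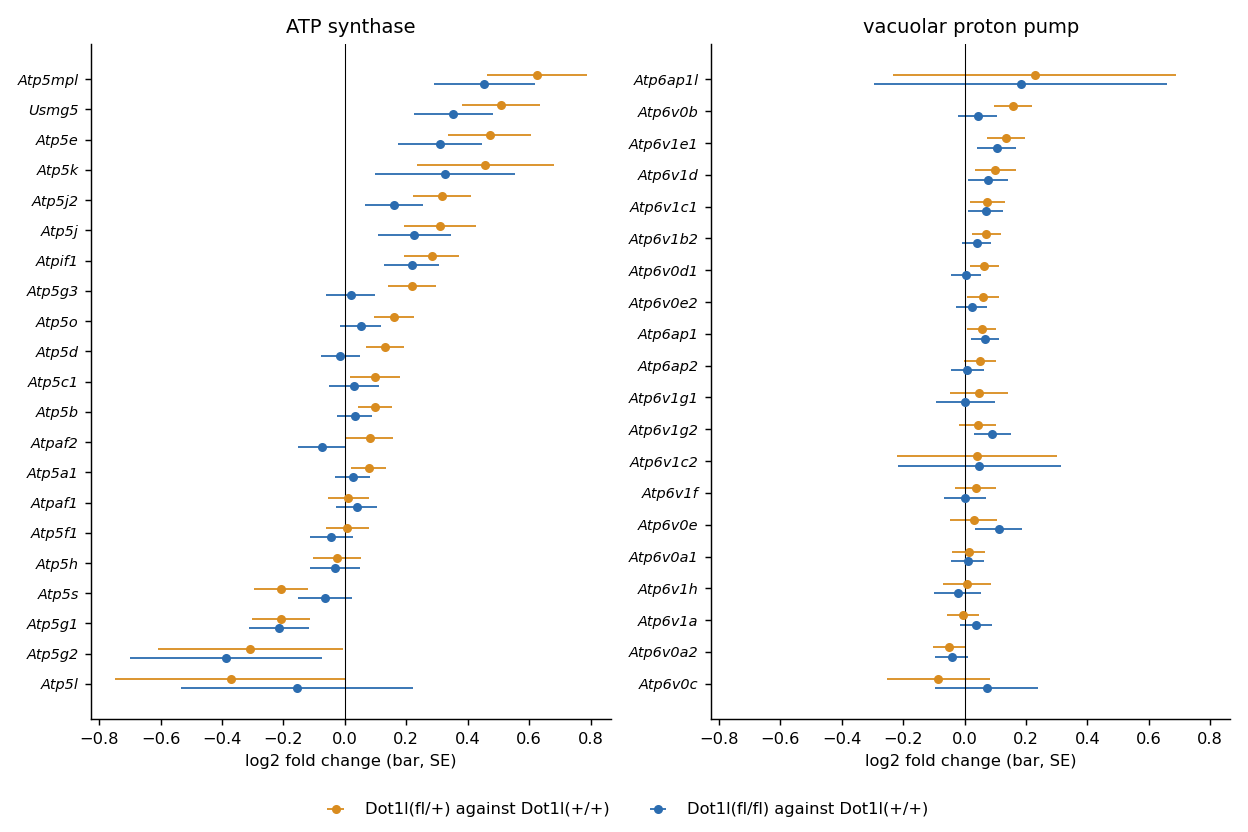
log2 fold change against Dot1l(+/+) of each tested synthase gene (left) and pump gene (right), in Dot1l(fl/+) (orange) and Dot1l(fl/fl) (blue), with bars for 1 SE. No value passed an adjusted p-value of 0.05 in the 9-library edgeR fit. Most synthase genes lie further from 0 in Dot1l(fl/+), up to 0.63 in Atp5mpl.

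The difference between both machines was not the same in each library. Relative to controls, the median synthase gene stood at 0.02, 0.19 and 0.17 on the log2 scale in the 3 Dot1l(fl/+) libraries and the median pump gene at 0.02, 0.11 and 0.04. The synthase median minus the pump median was -0.00, 0.08 and 0.12 there, -0.00, -0.00 and -0.02 with 2 floxed alleles, and between -0.01 and 0.00 in controls. Dot1l(fl/+) replicate 1 was thus at the control level, and the higher median came from replicates 2 and 3. The count of 10 synthase genes below an unadjusted p of 0.05 was 5 without Dot1l(+/+) replicate 3 and 6 without Dot1l(fl/+) replicate 2, where 5.45% and 10.2% of all genes were, and the pump count of 2 was 0 without either of them. The pump count was 1 without Dot1l(+/+) replicate 2 or without any 1 of the Dot1l(fl/fl) libraries. In these fits 6.72 to 7.96% of all genes were below an unadjusted p of 0.05.

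Length moved with the same contrast. Of the synthase genes, 17 of 21 had transcripts within the shortest quintile of protein-coding genes (255 to 1658 bases), against 10 of 20 pump genes, and the median lengths were 742 and 1709 bases. In Dot1l(fl/+) against controls the median log2 fold change of all 2946 protein-coding genes of that length class was 0.07, and it was -0.05 in the longest quintile. Within the shortest, the synthase genes had a median of 0.16 and the pump genes of 0.04. Across genes, which are not independent replicates, log2 fold change and length had a Spearman rho of -0.41 over the 21 synthase genes and -0.11 over the 20 pump genes. The shortest quintile stood at 0.01, 0.12 and 0.09 in the 3 Dot1l(fl/+) libraries, the order seen for the synthase. With an offset for length and GC content fitted in each library, 7 synthase genes and 2 pump genes were below an unadjusted p of 0.05, beside 6.88% of all genes in that fit, and the medians were 0.07 and 0.03. The genes differed in part from those without the offset. Atp5g3 (0.13, SE 0.064), Atp5o, Atp5s, Atp6v0b (0.08, SE 0.049) and Atp6v1e1 (0.09, SE 0.058) were no longer below that value, whereas the pump genes Atp6v1d (0.17, SE 0.063) and Atp6ap2 (0.13, SE 0.048) were. Atpif1 stayed below it at 0.16 (SE 0.07) and Atp5g1 at -0.31 (SE 0.10), while Atp6v0c gave -0.18 and Atp6v0d1 0.03. With the replicate block added to the offset, Atp5g3 (0.13, SE 0.055) and Atp5k (0.33, SE 0.15) were below it, beside 7.54% of all genes. Choroid plexus markers were also highest in Dot1l(fl/+), at 105, 169 and 573 CPM in replicates 1 to 3, with 4 of the 5 genes higher at an unadjusted p-value below 0.05, as for Ttr (log2 fold change 1.46, SE 0.52) and Clic6 (0.94, SE 0.34). Of 8 oligodendrocyte markers, 3 were higher at that level (Cldn11 0.27, SE 0.078, and Cnp 0.17, SE 0.057), and of 11 dopamine neuron markers 3 were lower (Slc18a2 -0.31, SE 0.10, and Slc6a3 -0.26, SE 0.091). Of the other lists, 1 of 9 general neuron markers was lower (Nefm -0.16, SE 0.064), 1 of 7 astrocyte markers higher (Aldh1l1 0.13, SE 0.055) and 0 of 6 endothelial markers passed that level. The 8 microglia markers summed to 351 to 368 CPM across controls, 352 to 420 with 1 floxed allele and 385 to 414 with 2. The part of length, choroid plexus RNA or cell makeup in the synthase values was not tested beyond the offset.

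**Figure D5:**
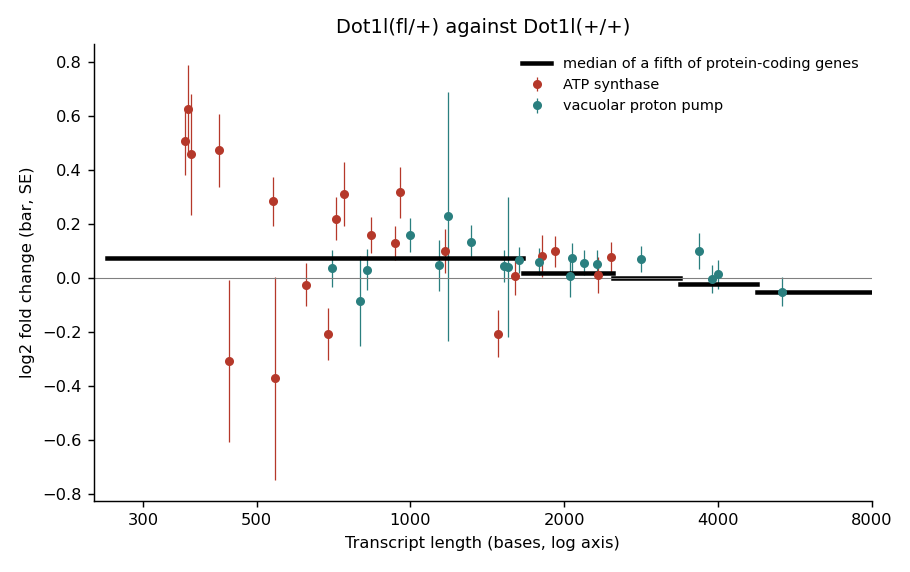
log2 fold change in Dot1l(fl/+) against Dot1l(+/+) of synthase genes (red) and pump genes (teal) against transcript length in bases on a log axis, with bars for 1 SE. Black lines give the median of each quintile of protein-coding genes by length, from 0.07 in the shortest to -0.05 in the longest, whose line is drawn only to the axis end. The shortest synthase genes reach both the highest values and, for Atp5g2, one of the lowest.

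With 2 floxed alleles, the second comparison asked the same of Dot1l(fl/fl) against Dot1l(+/+), using the same control libraries. No member and no gene passed an adjusted p-value of 0.05, and the lowest adjusted p over all genes was 0.0906. At an unadjusted p-value below 0.05 were 5 synthase genes, 4 higher and 1 lower, and 0 pump genes. Over all genes 3.93% were below this value, 2.21% higher and 1.72% lower. With the replicate number as a block, 3 genes passed the adjusted threshold, none of them a member, and 6 synthase genes were below the unadjusted one, as were 4.43% of all genes. In the fit without the block, 13 of 21 synthase genes, 18 of 20 pump genes and 8902 of all 17671 genes had a value above 0. The median log2 fold change was 0.03 for synthase genes and 0.04 for pump genes, and without Dot1l(+/+) replicate 3 the synthase median was -0.01. It was 0.01 without Dot1l(fl/fl) replicate 2 and 0.05 without Dot1l(+/+) replicate 2, and the pump median was 0.03 without Dot1l(+/+) replicate 1. All 3 libraries lay above the controls in 1 synthase and 1 pump gene and below them in 1 synthase gene, where 5.03% and 5.25% of all genes did so.

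In this group Atp5mpl was at 27.8, 42.0 and 23.9 CPM in Dot1l(fl/fl), with replicate 3 within the control range (log2 fold change 0.45, SE 0.16, unadjusted p = 0.0158, edgeR adjusted p = 0.999). This fold change rested largely on replicate 2, since it was 0.18 without that library and 0.61 without Dot1l(fl/fl) replicate 3. Usmg5 was at 15.0, 15.6 and 12.7 CPM, with replicate 3 again within it (0.35, SE 0.13, unadjusted p = 0.0163, edgeR adjusted p = 0.999). Atpif1 was at 67.8, 70.3 and 54.6 CPM (0.22, SE 0.09, unadjusted p = 0.0308, edgeR adjusted p = 0.999). Atp5e, at 25.0, 32.4 and 24.3 CPM, was the synthase gene with all 3 libraries above controls (0.31, SE 0.14), and Atp5g1, at 32.2, 25.7 and 31.8, the one with all below (-0.21, SE 0.097). In both genes, replicate 2 lay furthest from the controls. With Gm10039 added, Atp5g1 gave -0.04 (SE 0.063). Of the pump genes, Atp6v1e1 had the lowest p-value, at 296, 299 and 284 CPM and above all controls (0.10, SE 0.062, unadjusted p = 0.117, edgeR adjusted p = 0.999). Atp6v1g2 came next, at 287, 282 and 299 CPM across controls against 330, 313 and 282 (0.09, SE 0.06). Atp6v0e gave 21.9, 22.3 and 22.0 CPM across controls against 23.9, 25.4 and 22.2 (0.11, SE 0.077), and both genes overlapped controls. The value of Atp6v1g2 was 0.04 without Dot1l(fl/fl) replicate 1 and 0.15 without replicate 3 of that group, and that of Atp6v0e was 0.07 without replicate 2. With the length and GC offset only Atp5mpl (0.35, SE 0.13), Usmg5 (0.26, SE 0.11) and Atp5g1 (-0.25, SE 0.10) of the synthase genes were below an unadjusted p of 0.05, while Atpif1 (0.15) and Atp5e were not, Atp6v0e gave 0.07 and the synthase median was 0.02. With the offset and the replicate block together, Atp5e (0.23, SE 0.095) and Atp5j (0.16, SE 0.065) were below it too, beside 4.14% of all genes. Without Dot1l(+/+) replicate 1 or without Dot1l(fl/fl) replicate 2, 0 synthase genes remained below an unadjusted p of 0.05, and without Dot1l(+/+) replicate 2 or 3 there were 2. In these 4 fits 2.13 to 3.81% of all genes were below it. In this comparison 9 of 11 dopamine neuron markers were lower at that level, with the lowest p-values for Slc6a3 (-0.68, SE 0.093) and Slc18a2 (-0.68, SE 0.11), as were 3 of 5 choroid plexus markers, with the lowest for Ttr (-2.44, SE 0.60) and Kcnj13 (-1.19, SE 0.52), and 2 of 8 microglia markers were higher (Aif1 0.42, SE 0.17, and Csf1r 0.15, SE 0.061), and no marker of general neurons, oligodendrocytes, astrocytes or endothelium passed that level. Their part in the member values was not tested.

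Both floxed groups were then set against each other, again with shared libraries. In Dot1l(fl/fl) against Dot1l(fl/+) no member passed an adjusted p-value of 0.05, the lowest being 0.733. At an unadjusted p-value below 0.05 were 2 synthase genes, both lower, and 0 pump genes. Over all genes 6.48% were below this value, 3.6% higher and 2.87% lower. The assembly factor Atpaf2 was the 1 member whose 3 Dot1l(fl/fl) libraries all lay below the other group (-0.16, SE 0.078), and none lay all above, where 5.14% and 5.98% of all genes did so. Atp5g3 was at 127, 163 and 141 CPM in Dot1l(fl/fl) against 153, 176 and 166 in Dot1l(fl/+), ranges that overlap (log2 fold change -0.20, SE 0.079, unadjusted p = 0.0241, edgeR adjusted p = 0.733). Its fold change was -0.12 without Dot1l(fl/fl) replicate 1 and -0.30 without Dot1l(fl/fl) replicate 2. Atp5d, the delta subunit, was at 109, 108 and 103 CPM against 108, 122 and 123, beside 116, 105 and 102 in controls, and the groups overlapped (-0.14, SE 0.063, unadjusted p = 0.0378, edgeR adjusted p = 0.745). Of all 17671 genes 8749 had a value below 0, and their median was 0.00, with -0.05 in the shortest quintile of protein-coding genes. The median was -0.08 for synthase genes, 18 of 21 of which had a value below 0, and -0.03 for pump genes, with 13 of 20 below 0. Without Dot1l(fl/+) replicate 1 these medians were -0.13 and -0.05, without Dot1l(fl/fl) replicate 3 the synthase median was -0.05, and the pump median was 0.01 without Dot1l(fl/+) replicate 2, -0.00 without replicate 3 of that group, and -0.04 once Dot1l(fl/fl) replicate 2 was left out. The lowest pump p-values were those of Atp6v0b (-0.12, SE 0.062, edgeR adjusted p = 0.778) and Atp6v0d1 (-0.06, SE 0.048, edgeR adjusted p = 0.842, and -0.02 without Dot1l(fl/+) replicate 2). With the length and GC offset, Atp5d gave -0.06 and was no longer below an unadjusted p of 0.05, Atp6ap2 (-0.11, SE 0.048) was, Atp6v0b gave -0.06 and Atp6v0d1 -0.03, and the medians were -0.05 and -0.01. The pump median was also -0.01 with the replicate block. The synthase count was 5 without Dot1l(fl/+) replicate 1, 4 without Dot1l(fl/fl) replicate 2, and 0 without Dot1l(fl/fl) replicate 3, where 9.37%, 5.55% and 5.29% of all genes were below that value. It was 1 without Dot1l(fl/+) replicate 2 or 3 or Dot1l(fl/fl) replicate 1, and also 1 in a fit blocked on replicate number, where Atp5g3 alone and 7.12% of all genes were below that value and 3 genes, none of them a member, passed the adjusted threshold. In the same comparison 6 of 11 dopamine neuron markers (Slc6a3 -0.42, SE 0.093), all 5 choroid plexus markers (Ttr -3.9, SE 0.61) and 4 of 8 oligodendrocyte markers (Cnp -0.19, SE 0.057) were lower at an unadjusted p-value below 0.05. Of 9 general neuron markers 1 was higher (Snap25 0.21, SE 0.076) and 1 lower (Eno2 -0.13, SE 0.052), and no astrocyte, microglia or endothelial marker passed that level. Their part in the member values was not tested.

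Partners of both machines were counted from a list. Of 12 partners of the synthase, 10 passed the filter, and mt-Atp6 and mt-Atp8, the synthase genes of the mitochondrial genome, were counted at no more than 0.472 CPM and at 0. The aligner, the counter and its strand setting are not given in the sources used here, so these values are those of the reads assigned and say nothing of how much of either transcript was present. In Dot1l(fl/+) against controls 2 of the 10 were higher at an unadjusted p-value below 0.05 and 0 lower, namely Fmc1, an assembly factor (0.36, SE 0.14), and Slc25a4, the exchanger of ADP and ATP (0.15, SE 0.062), where 4.3% of all genes were higher and 4.09% lower. None was below that level in the other 2 comparisons (edgeR). Of 15 tested partners of the pump, 1 was lower in Dot1l(fl/+), Vma21, which helps to assemble V0 (-0.15, SE 0.067), and 1 was higher in Dot1l(fl/fl) against Dot1l(fl/+), Ostm1, the partner of the lysosomal chloride exchanger (0.21, SE 0.062), where 4.09% and 3.6% of all genes were in these directions. The edgeR adjusted p-values of these 4 genes were at least 0.541.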

How the data were processed

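The authors made directional libraries from total RNA and sequenced them, and deposited raw counts per Ensembl gene for 9 libraries. The submitters' notes name bcl2fastq 2.17, Trimmomatic 0.30, DESeq2 1.10.1 and GRCm38.p4, and the aligner, the counter and its strand setting are not given in the sources used here. The deposited tables of the authors' own comparisons (fold changes and p-values) were not used. Members and gene lists were chosen with earlier results of these data known. Identifiers were matched to GENCODE M21 (47310 of 47729, with 99.9% of counts).

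The counts were fitted in edgeR 4.0.16 (R 4.3.3, limma 3.58.1) in 1 quasi-likelihood model of all 9 libraries with genotype as factor, TMM factors (0.988 to 1.01), filterByExpr (17671 genes) and Benjamini-Hochberg adjustment. The common biological coefficient of variation was 8.81%, and replicates differed by 4.47 to 16.6 times counting noise (chi-square per degree of freedom), so no 2 replicates agreed within counting noise, which does not show that they came from different pools. Because each library is a pool, p-values measure the spread between pools. Alternatives were DESeq2 1.42.0, other filters and size factors, a replicate block, and leaving out each library. A spline offset for length and GC content (4 degrees of freedom) was another. Added after seeing the data, a further one summed members with their copies, the processed pseudogenes sharing 10% or more of a member's 50-base words. Other genes sharing as many words were not summed. Steps were tested on simulated data. Named genes were the c ring genes with Atp6v0c, Atpif1, and per machine the 5, 3 and 2 lowest p-values of Dot1l(fl/+) against Dot1l(+/+), Dot1l(fl/fl) against Dot1l(+/+) and Dot1l(fl/fl) against Dot1l(fl/+), with the 2 lowest of each list with any gene at an unadjusted p below 0.05. Genes outside this rule were chosen after their values were seen. Length was that of the principal transcript. log2 CPM for medians by library used a prior count of 2. Sums and plots used numpy 2.4.6, pandas 2.3.3 and matplotlib 3.10.9 under Python 3.11.15. The result of 1 marker list in Dot1l(fl/+) against Dot1l(+/+) is not reported here.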

Additional observations from a re-analysis of the deposited data

How the results depend on the processing

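Among gene counts, member counts and medians under the alternatives, 57 values moved by more than 1.5 times or by more than the spread between replicates and 228 did not. In Dot1l(fl/+) against Dot1l(+/+), genes past an adjusted p-value of 0.05 numbered 0 in edgeR, 3 by DESeq2 on all 9 libraries, 251 without the filter on low counts, 45 by DESeq2 and 1 by edgeR on 2 groups, and 0 to 5 with a library left out. In Dot1l(fl/fl) against Dot1l(+/+) they numbered 0, 3, 118, 8 and 4, and 0 to 4. In Dot1l(fl/fl) against Dot1l(fl/+) they numbered 0, 3 or more in 5 settings (14 by DESeq2 on all 9 libraries, 164 without the filter, 13 by DESeq2 on 2 groups), and 0 to 12. Synthase genes at an unadjusted p below 0.05 ranged from 5 to 11, 0 to 6 and 0 to 5 in the 3 comparisons with a library left out. In the same fits 5.45 to 12.5%, 2.13 to 5.26% and 4.9 to 9.79% of all genes were below it. In both comparisons with Dot1l(fl/fl), in that order, 8 and 4 synthase genes were below it without the filter. These fits had 4.27 and 6.34% of all genes below it. With the length and GC offset there were 3 and 1 synthase genes, beside 3.83 and 5.73% of all genes. Pump genes ranged from 0 to 2, 0 to 1 and 0 to 1 with a library left out, beside the shares given above for those fits. They were 1 by DESeq2 and 1 by edgeR on 2 groups in each comparison with Dot1l(+/+), 1 with copies added in Dot1l(fl/fl) against Dot1l(+/+), and 1 without the filter and 1 with the offset in Dot1l(fl/fl) against Dot1l(fl/+). Of all genes, 3.49 and 2.12% were below it by DESeq2 on 2 groups and 7.32 and 5.57% by edgeR. With copies added, 3.92% were. The pump median of Dot1l(fl/fl) against Dot1l(fl/+) was -0.0471 to 0.00867 with a library left out. Atp6v0c in Dot1l(fl/+) ranged from -0.25 to 0.0934 with a library left out, above 0 without Dot1l(+/+) replicate 3 (0.0358) or Dot1l(fl/+) replicate 2 (0.0934), and turned to 0.40 with copies. Atp5g1 turned to 0.035 with copies. Beyond the construction of each setting, the cause was not tested.

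Replicate numbers are shared by the groups. The pools were built from sets of all 3 genotypes from the same nest, but whether a number marks such a set is not given in the sources used here. Over all tested genes, correlations of same-numbered deviations were 0.317, 0.111 and 0.0898 for Dot1l(fl/+) and Dot1l(+/+). They were 0.311, 0.182 and 0.0222 for Dot1l(fl/fl) and Dot1l(+/+), and 0.289, 0.143 and 0.08 for both floxed groups, all above 0. Those of unlike number ran from -0.18 to 0.08, -0.25 to 0.11 and -0.27 to 0.11, in the same order. Same numbers thus tended to correlate more, but pairing by number could not be settled from these values. Over the 5000 genes with the highest level, same-numbered values were at least 0.0159, 0.217 and 0.163, in the same order. Not every library correlated best with its own number. With the replicate block, genes past the adjusted threshold numbered 3 in each comparison with Dot1l(fl/fl), and 3 and 4 with the offset and the block together. With the block alone, 11 synthase genes and 2 pump genes were below an unadjusted p of 0.05 in Dot1l(fl/+) against Dot1l(+/+), beside 9.34% of all genes. The synthase count in Dot1l(fl/fl) against Dot1l(fl/+) was 1 in both blocked fits, beside 7.12 and 6.21% of all genes.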
